A study of Mus musculus with 6 samples.

Results

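The genes described here are those of the mouse major histocompatibility complex (MHC) and of the machinery that loads peptide onto MHC molecules, measured in regulatory T cells (Treg cells). Members were all gene symbols that begin with H2- and 14 named genes of antigen processing and its control (B2m, Tap1, Tap2, Tapbp, Tapbpl, Psmb8, Psmb9, Psmb10, Psme1, Psme2, Erap1, Nlrc5, Ciita and Cd74). They were chosen by name and not by a cut on measured values, but with earlier results of these data known. They numbered 57 of 24453 symbols, 43 by the prefix and 14 by name. Of these, 44 belong to class I, 12 to class II and 1, H2-Ke6, to neither, and 48 lie on chromosome 17.

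Total RNA of CD4+Foxp3+ cells, sorted by flow cytometry from healthy C57BL/6 females, was made into TruSeq libraries and sequenced. One group of 3 libraries carried a miR-27 transgene (miR-27 Tg), which the series text describes as overexpression of miR-27a in Treg cells and places on a background it calls Foxp3cre het. The other group of 3 libraries was wild type (WT), with a genotype label that reads WT Tg, whose second word the labels leave unexplained. The labels give no age and do not say whether the 3 libraries of a genotype stem from different animals. The p-values therefore reflect spread among libraries that may be technical.

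MHC class I molecules are heavy chains paired with beta-2 microglobulin that show peptides from inside the cell to CD8 T cells. The peptides are cut by the proteasome, carried into the endoplasmic reticulum by the transporter TAP, trimmed by ERAP1 and loaded with the help of tapasin. MHC class II molecules show peptides from endosomes to CD4 T cells and are made mainly by B cells, dendritic cells and macrophages, while mouse T cells make class I but little or no class II.

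Values are RPKM (reads per kilobase of transcript) on a library total of 10000000 reads, so levels can be compared between genes. Depth was 34436961 to 38080099 counted reads per miR-27 Tg library and 37677849 to 42061007 per WT library. The hairpin of miR-27a had 2921, 2206 and 2339 reads in miR-27 Tg replicates 1 to 3, against 9, 13 and 8 reads in WT replicates 1 to 3. Cd4 (1864 to 2293 RPKM over all libraries) and Foxp3 (662 to 955 RPKM), the genes of the sort label, were high in every library. So was the T cell gene Cd3e (1320.4 to 1893 RPKM). Pearson correlations of log2 levels, taken over genes rather than independent replicates, were 0.979 to 0.985 within miR-27 Tg, 0.982 to 0.983 within WT and 0.970 to 0.980 between the groups.

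A gene was tested where its mean over the 6 libraries was at least 1 RPKM, which 45 of the 57 members reached, 33 of class I, 11 of class II and H2-Ke6. Of the other 12 members, 8 were at 0 in every library, all of them class I genes of the M region. H2-T3, at a mean of 0.967 RPKM, lay just under that limit and H2-Bl, at 1.37 RPKM, just over it. The other members under the limit were H2-M10.2, H2-M5 and H2-Ea-ps. The test was limma with an intensity trend on log2(RPKM + 1), with p adjusted by Benjamini-Hochberg across the 13621 tested genes (threshold 0.05), and each log2 fold change is miR-27 Tg over WT on that scale, which understates the change of low genes.

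Among the 45 members tested 1 was higher in miR-27 Tg libraries, H2-T24, and 0 were lower by limma. That is 2.22% of the members, beside 1.03% of all genes tested called in either direction and 0.374% called higher. At an unadjusted p under 0.05, 5 of the 45 members were higher and 0 lower, beside 4.59% of all genes tested higher and 8.43% lower. The 3 miR-27 Tg values all lay to one side of the 3 WT values for 5 members (11.1%), beside 18.5% of all genes tested. All 5 were on the higher side, where 6.84% of all genes tested fell, and they are H2-T24, H2-Ob, H2-T10, Tap2 and H2-M2. The median log2 fold change was 0.053 over the 33 class I members tested and 0.72 over the 11 of class II, beside -0.013 over all genes tested.

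**Figure D1:**
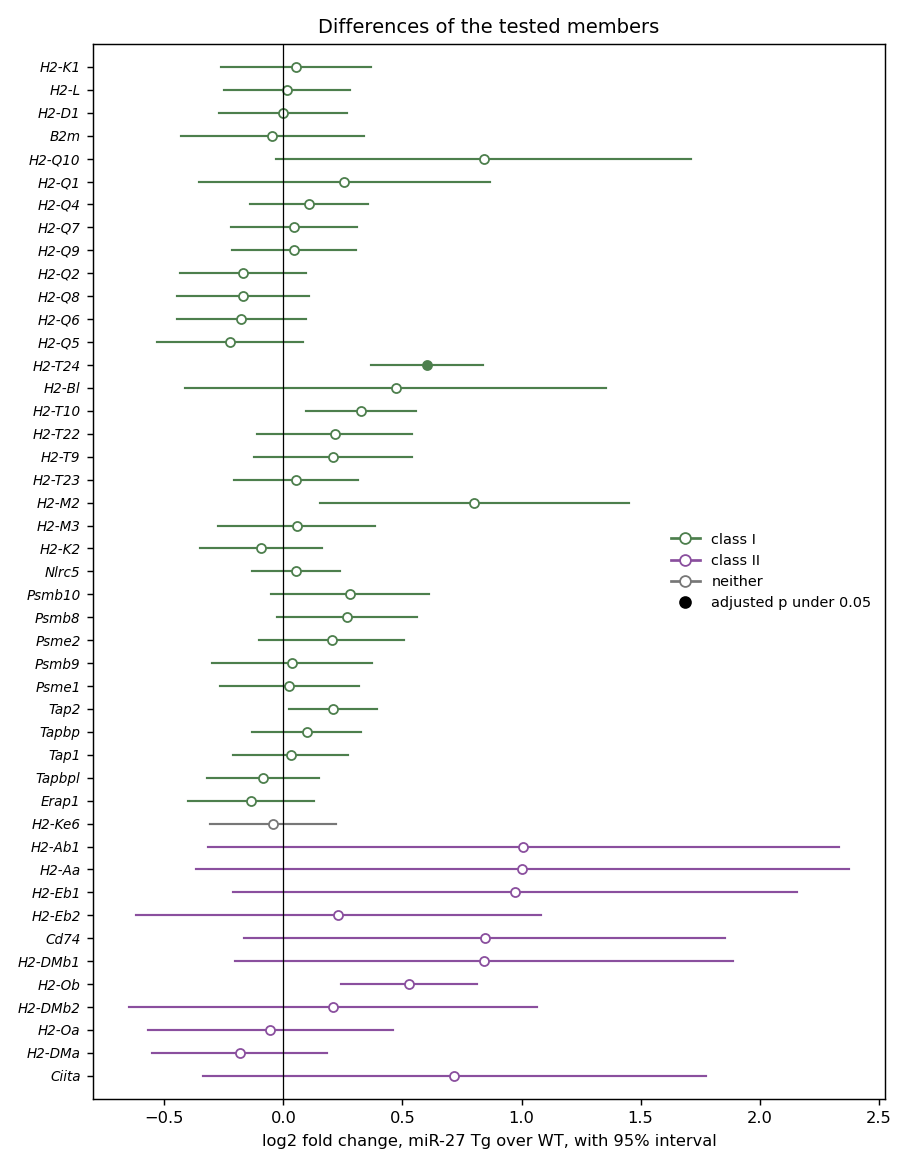
Log2 fold change of each of the 45 members tested (horizontal axis, miR-27 Tg over WT, log2(RPKM + 1) scale) with its 95% interval from limma, ordered by role. The filled point is H2-T24, the 1 member past the threshold of 0.05, and the widest intervals belong to class II genes such as H2-Aa, -0.37 to 2.37.

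Classical class I genes were among the most abundant transcripts of these cells in both genotypes, and no difference between the genotypes passed the test. B2m, the light chain shared by class I molecules, ranked 2 of 24453 symbols by mean RPKM, the classical heavy chain H2-K1 ranked 3 and the other classical heavy chain, H2-D1, ranked 13. H2-K1 was at 14645, 15677 and 17085 RPKM in miR-27 Tg replicates 1 to 3, against 14386, 15296 and 16013 RPKM in WT replicates 1 to 3. The ranges of the groups overlapped, and the log2 fold change was 0.052 with a 95% interval of -0.26 to 0.37 (adjusted p = 0.930 by limma).

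For H2-D1 the levels were 7606, 7859 and 7689 RPKM in miR-27 Tg libraries and 7495, 7293 and 8451 RPKM in WT libraries. All 3 miR-27 Tg values lay inside the WT range, with a log2 fold change of -0.0025 and an interval of -0.27 to 0.27 (adjusted p = 0.997 by limma). B2m stood at 16147, 18486 and 22349 RPKM in miR-27 Tg libraries and 19435, 20711 and 18243 RPKM in WT libraries. Its lowest and highest values were both miR-27 Tg libraries, and the log2 fold change was -0.046, interval -0.43 to 0.34 (adjusted p = 0.951 by limma). The table lists H2-L at the locus of H2-D1, in the stretch chr17:35263123-35266730 that lies inside chr17:35263094-35267497 (mm10), and the level of H2-D1 was 1.01 to 1.04 times that of H2-L in every library, so these rows cannot be told apart. H2-K2, a relative of H2-K1, had a log2 fold change of -0.093 with an interval of -0.35 to 0.16.

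The promoters of H2-K1, H2-D1 and the transporter gene Tap1 hold the Y box, the element CTGATTGG that the factor NF-Y is known to bind in promoters of both MHC classes. The RefSeq windows (GRCm38.p6, from 250 bases before to 50 bases after the annotated start) of H2-K1, at chr17:34000284-34000583 on the minus strand, and of Tap1, at chr17:34187306-34187605 on the plus strand, are shown with the Y box and the shorter CCAAT box ATTGG, or their reverse complements, in capitals.
H2-K1: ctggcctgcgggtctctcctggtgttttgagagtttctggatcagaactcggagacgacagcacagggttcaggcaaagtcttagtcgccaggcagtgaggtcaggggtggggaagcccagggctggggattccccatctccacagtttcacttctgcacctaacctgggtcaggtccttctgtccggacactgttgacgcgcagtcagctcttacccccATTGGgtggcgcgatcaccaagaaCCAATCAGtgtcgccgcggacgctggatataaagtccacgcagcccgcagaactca
Tap1: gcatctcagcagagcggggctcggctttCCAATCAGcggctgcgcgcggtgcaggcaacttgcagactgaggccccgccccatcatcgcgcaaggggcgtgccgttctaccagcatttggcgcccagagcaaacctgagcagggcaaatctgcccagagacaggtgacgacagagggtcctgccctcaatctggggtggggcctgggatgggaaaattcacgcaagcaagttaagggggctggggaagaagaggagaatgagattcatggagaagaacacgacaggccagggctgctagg
The Y box begins 6 bases before the annotated start of H2-K1 and 222 bases before that of Tap1. Tap1 and Psmb9 are neighbours that are read in opposite directions, and the window of Psmb9 holds the same Y box.

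The promoters of 40 members had an entry in the RefSeq table. The Y box, searched on both strands, was in 19 of these 40 (47.5%), beside 4.7% of the 27025 genes of the table. The CCAAT box, which the Y box contains, was in 32 of 40 (80.0%), beside 41.1% of all genes. Many members are paralogs with related promoters, so these shares do not count independent events, and a match is a run of letters and no measure of binding.

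**Figure D2:**
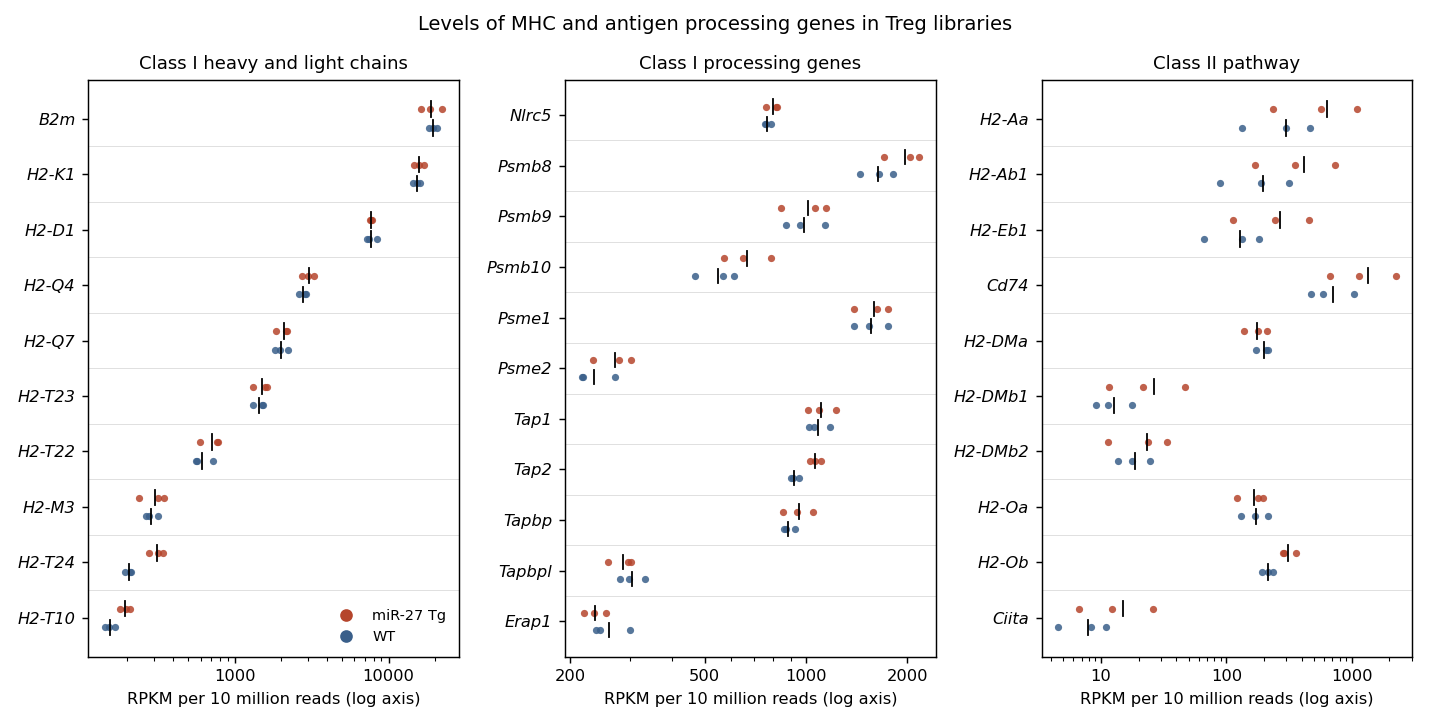
RPKM (horizontal axis, log scale) of 31 members in each library, with miR-27 Tg libraries drawn above WT libraries, 1 point per library and a bar at the group mean (n = 3). Points of the classical class I genes lie close together, H2-T24 and H2-Ob stand apart between the genotypes, and those of the class II chains spread widely within both genotypes.

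Non-classical class I genes of the Q, T and M regions encode heavy chains of narrower or specialised function, and H2-T24 among them was the 1 member that rose. H2-T24, at chr17:36005695-36020560 on the minus strand (mm10), was at 277, 344 and 316 RPKM in miR-27 Tg replicates 1 to 3, against 207, 212 and 195 RPKM in WT replicates 1 to 3. The groups did not overlap, and the lowest miR-27 Tg value stood well above the highest WT value. The means were 312 ± 33.6 RPKM in miR-27 Tg and 205 ± 8.97 RPKM in WT (SD, n = 3 each), a rise of 0.60 on the log2 scale (SE 0.10, 1.52-fold with a 95% interval of 1.29 to 1.79, adjusted p = 0.0422 by limma). The values rest on 2295 to 2577 reads per miR-27 Tg library and 1594 to 1897 reads per WT library, and no exon of another GENCODE M21 gene overlaps its exons. With any 1 of the 6 libraries left out the log2 fold change was 0.53 to 0.69 but the adjusted p by limma was 0.0566 to 0.155, so the call needed all 6 libraries. The call was also lost with no filter on low values (adjusted p = 0.0719 by limma) and with no intensity trend (adjusted p = 0.0809 by limma).

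H2-T10, which like its neighbour H2-T22 encodes a ligand of some gamma-delta T cell receptors, showed the same order of groups at a smaller size. Its levels were 179, 196 and 209.8 RPKM in miR-27 Tg libraries and 144, 168 and 154 RPKM in WT libraries, without overlap. The log2 fold change was 0.33 (SE 0.10, adjusted p = 0.212 by limma) and did not pass. Of the exonic bases of H2-T10 in GENCODE M21 (3419, against 2846 in the counted transcript), 27.1% overlap BC023719. Reads were counted on both strands, so its value may include reads of that gene. H2-T22 was at 597, 769.9 and 775 RPKM in miR-27 Tg libraries and 565, 719 and 559 RPKM in WT libraries. These ranges overlapped through WT replicate 2, and the log2 fold change of 0.22 did not pass (adjusted p = 0.610 by limma).

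H2-T23, which encodes the Qa-1 molecule recognised by CD94/NKG2 receptors, and H2-M3, which presents formylated peptides, overlapped between the groups. H2-T23 had 1324, 1617 and 1565 RPKM in miR-27 Tg libraries and 1528, 1497 and 1311 RPKM in WT libraries (log2 fold change 0.053, interval -0.21 to 0.31). H2-M3 had 241, 317 and 347 RPKM in miR-27 Tg libraries and 279, 315 and 267 RPKM in WT libraries (log2 fold change 0.055, interval -0.27 to 0.39). In both genes miR-27 Tg libraries lay on either side of the WT median. All 6 T region genes tested had a log2 fold change above 0, with a median of 0.27, and 1 of them passed the test. Over all 13621 genes tested, 6413 had a log2 fold change above 0. The 6 are not all separate measurements, since H2-T22 and H2-T9 cover the same locus. H2-Bl rests on 2 to 12 reads per library.

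The 9 Q region genes had log2 fold changes of -0.22 to 0.84, 5 above and 4 below 0, and 0 passed. H2-Q7, which encodes the Qa-2 molecule, was at 1867, 2168 and 2201 RPKM in miR-27 Tg libraries and 1837, 1982 and 2228 RPKM in WT libraries, overlapping ranges with a log2 fold change of 0.045 and an interval of -0.22 to 0.31. The rows of H2-Q7 and H2-Q9 cover the same locus, as do those of H2-Q8 and H2-Q6 and those of H2-T22 and H2-T9, and within each pair the ratio of levels hardly moved between libraries (1.23 to 1.24, 1.03 to 1.05 and 0.954 to 0.966). These pairs are 1 measurement each, given under 2 names. Near-identical heavy chain genes can also take each other's reads, so values within the Q and T regions are uncertain as to which copy they come from.

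The largest class I fold changes, those of H2-Q10 and H2-M2, belonged to genes with few reads. H2-Q10, a gene best known for a secreted class I protein of liver, had 19.7, 8.73 and 16.9 RPKM in miR-27 Tg libraries and 12.5, 7.12 and 4.71 RPKM in WT libraries. The ranges overlapped, since miR-27 Tg replicate 2 lay below WT replicate 1, and the log2 fold change of 0.84 did not pass (SE 0.38, adjusted p = 0.404 by limma). H2-M2 had 5.86, 4.20 and 3.24 RPKM in miR-27 Tg libraries and 1.41, 2.84 and 2.09 RPKM in WT libraries, from 17 to 34 reads and 9 to 17 reads. The groups did not overlap, but the log2 fold change of 0.80 did not pass (SE 0.28, adjusted p = 0.269 by limma).

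**Figure D3:**
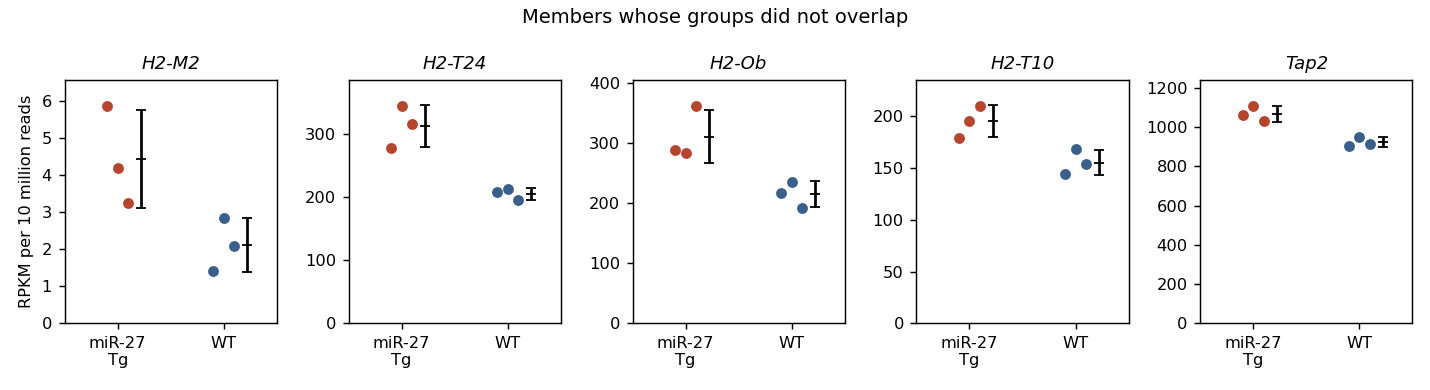
RPKM (vertical axes, from 0) of the 5 members whose miR-27 Tg and WT libraries did not overlap, with 1 point per library and the mean ± SD beside each group of 3. All 5 are higher in miR-27 Tg libraries, and of them H2-T24 passed the test.

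Genes that supply class I peptides were expressed at high levels in both genotypes, and none of them changed by the test. Nlrc5, the transactivator of class I genes, was the steadiest of the 33 class I members tested, its highest library being 1.08 times its lowest. It was at 759, 821 and 814 RPKM in miR-27 Tg libraries and 757, 789 and 759 RPKM in WT libraries. The ranges overlapped, and the log2 fold change was 0.054 with an interval of -0.13 to 0.24 (adjusted p = 0.856 by limma).

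The immunoproteasome subunits Psmb8, Psmb9 and Psmb10 replace the catalytic subunits Psmb5, Psmb6 and Psmb7 of the standard proteasome. Psmb8 was at 1707, 2034 and 2165 RPKM in miR-27 Tg libraries and 1448, 1812 and 1644 RPKM in WT libraries (log2 fold change 0.27, interval -0.027 to 0.56). Psmb10 was at 570.0, 650.1 and 786 RPKM in miR-27 Tg libraries and 470.0, 611 and 567 RPKM in WT libraries (log2 fold change 0.28, interval -0.054 to 0.61). Psmb9 was at 842, 1065 and 1145 RPKM in miR-27 Tg libraries and 872, 1139 and 957 RPKM in WT libraries (log2 fold change 0.037, interval -0.30 to 0.37). In all 3 the groups overlapped, and the adjusted p-values by limma were 0.436, 0.482 and 0.956. Each immune subunit stood above the standard subunit it replaces in every library. The ratio of RPKM levels was 9.09 to 10.6 in miR-27 Tg libraries and 8.87 to 10.1 in WT libraries for Psmb8 over Psmb5, and 2.37 to 2.51 in miR-27 Tg libraries and 2.33 to 2.90 in WT libraries for Psmb9 over Psmb6. For Psmb10 over Psmb7 it was 1.64 to 1.90 in miR-27 Tg libraries and 1.29 to 1.48 in WT libraries, the 1 ratio of the 3 whose groups did not overlap. Neither Psmb10 nor Psmb7 (adjusted p = 0.890 by limma) passed the test, and no share without overlap was taken over ratios of other genes.

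Psme1 and Psme2 encode the subunits of the PA28 activator, which opens the proteasome. Psme1 was at 1389.6, 1627 and 1748 RPKM in miR-27 Tg libraries and 1388, 1757 and 1543 RPKM in WT libraries (log2 fold change 0.024, interval -0.27 to 0.32). Psme2 was at 233, 278 and 303 RPKM in miR-27 Tg libraries and 218, 272 and 216 RPKM in WT libraries (log2 fold change 0.20, interval -0.10 to 0.51). Both genes overlapped between the groups and neither passed the test. The ratio of Psme1 to Psme2 did not overlap, at 5.77 to 5.96 in miR-27 Tg libraries and 6.36 to 7.14 in WT libraries. For this ratio too, no share without overlap was taken over ratios of other genes, and the ratio itself was not tested. Among 17 other genes of the proteasome, its assembly and its activators 0 were higher and 0 lower, with 0 of 17 at an unadjusted p under 0.05 and a median log2 fold change of 0.025. The largest of these were those of Psmb5, 0.21 (adjusted p = 0.645 by limma), and Psmb6, 0.14 (adjusted p = 0.800 by limma).

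The transporter genes differed from each other in how their groups lay. Tap2 was at 1060.3, 1108 and 1031 RPKM in miR-27 Tg libraries and 902, 951 and 913 RPKM in WT libraries. The groups did not overlap, but the log2 fold change of 0.21 (SE 0.08) did not pass after adjustment over all genes (adjusted p = 0.314 by limma). Of the exonic bases of its GENCODE M21 transcript 19.8% overlap the annotated genes Gm15821 and Gm20496. That transcript has 3442 bases, against 2476 in the counted one, so not all of these bases need have been counted. Its partner Tap1 was at 1016, 1225 and 1094 RPKM in miR-27 Tg libraries and 1021, 1180.4 and 1060.0 RPKM in WT libraries, ranges that overlapped almost wholly (log2 fold change 0.031, interval -0.21 to 0.27).

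Tapbp, the tapasin gene that holds class I at the transporter, was at 943, 1053 and 857 RPKM in miR-27 Tg libraries and 869.9, 862 and 927 RPKM in WT libraries (log2 fold change 0.097, interval -0.13 to 0.33). Tapbpl, which encodes the related editor TAPBPR, had a log2 fold change of -0.086 and an interval of -0.32 to 0.15. Erap1, the aminopeptidase that trims peptides in the endoplasmic reticulum, was at 219.8, 235 and 255 RPKM in miR-27 Tg libraries and 245, 301 and 237 RPKM in WT libraries. The Erap1 ranges overlapped, with a log2 fold change of -0.14 and an interval of -0.40 to 0.13 (adjusted p = 0.703 by limma). Among 12 other class I loading genes (chaperones, translocon subunits, trimming peptidases) 0 passed the test and 0 reached an unadjusted p under 0.05, with a median log2 fold change of 0.020. Reads of overlapping genes could enter Erap1 (14.8% of exonic bases overlap Cast), Tapbp (14.6%, Gm19412) and Psmb8 (11.4%, Gm20496). These shares are of GENCODE M21 transcripts, which differ from the counted ones, as in Erap1 (5644 bases against 3993 counted). The GENCODE transcript of Psmb9 overlaps Tap1 (15.7%). The counted Psmb9 transcript, at chr17:34182099-34187330, does not reach the counted Tap1 transcript, which begins at 34187556. The largest change of the 12 was that of Npepps, a cytosolic aminopeptidase, -0.32 (adjusted p = 0.420 by limma), and the next that of Lnpep, -0.16 (adjusted p = 0.520 by limma).

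MicroRNAs lower the messenger RNAs they pair with, mostly through bases 2 to 8 (the seed), so the 3′ UTRs of members were searched for the seed match of miR-27a. The mature sequence is that of RefSeq (GRCm38.p6) with the seed in capitals, and the 3 matches in members that were tested are given in DNA letters with the matching 7 bases in capitals.
mmu-miR-27a-3p: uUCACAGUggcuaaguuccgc
Erap1 first site: aagcttcaatgACTGTGAttgacaggttta
Erap1 second site: atatgcaagtcACTGTGAgttaccagcaaa
H2-DMa site: tttactcctgcACTGTGAcacacgagattg
The sites begin at base 151 and base 1908 of a 3′ UTR of 2472 bases in Erap1, and at base 920 of 1862 bases in H2-DMa (GENCODE M21, longest annotated 3′ UTR). Such a match was in 2 of the 39 tested members that had an annotated 3′ UTR (5.13%), beside 2164 of 11826 genes tested (18.3%). The 3′ UTRs of these members were shorter, at a median of 629 bases beside 1286 bases for all genes tested. Erap1 and H2-DMa had log2 fold changes of -0.14 and -0.18, and neither passed the test. The measured transcripts were 3993 bases long in Erap1 and 1650 bases in H2-DMa, and they need not hold the 3′ UTRs searched. That of H2-DMa is shorter than the 3′ UTR in which its site lies. H2-M9, which was at 0 RPKM in every library, held 1 match too.

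MHC class II genes differed widely between libraries of the same genotype, and 0 of the 11 tested passed the test. The highest library of a gene was a median of 4.74 times the lowest over the 11 class II members, beside 1.37 times over the 33 class I members. H2-Aa, the alpha chain of the class II molecule I-A, was at 234, 1105 and 566 RPKM in miR-27 Tg replicates 1 to 3, against 132, 296 and 462 RPKM in WT replicates 1 to 3. The groups overlapped, with WT replicates 2 and 3 both above miR-27 Tg replicate 1. The means were 635 ± 439.7 RPKM in miR-27 Tg and 297 ± 165 RPKM in WT (SD, n = 3 each), and the log2 fold change of 1.0 had an interval of -0.37 to 2.37 (adjusted p = 0.564 by limma).

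H2-Ab1, the beta chain of I-A, moved with H2-Aa from library to library, at 168, 732 and 355 RPKM in miR-27 Tg libraries and 89.5, 188 and 315 RPKM in WT libraries. H2-Aa over H2-Ab1 was a ratio of 1.39 to 1.60 in miR-27 Tg libraries and 1.47 to 1.58 in WT libraries. H2-Eb1, the beta chain of the second class II molecule, was at 113, 452 and 243 RPKM in miR-27 Tg libraries and 66.6, 134 and 182 RPKM in WT libraries. In all 3 chain genes the order of libraries was the same, with WT replicate 1 lowest, then miR-27 Tg replicate 1, WT replicates 2 and 3, and miR-27 Tg replicates 3 and 2. The log2 fold changes were 1.01 for H2-Ab1 (adjusted p = 0.543 by limma) and 0.97 for H2-Eb1 (adjusted p = 0.495 by limma). The alpha chain that would pair with the H2-Eb1 product, H2-Ea-ps, is a pseudogene in C57BL/6, and it had 2 reads in WT replicate 3 and 0 in the other 5 libraries, where 3 reads are the upper limit that a count of 0 allows.

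The promoters of H2-Aa, of H2-Eb1 and of H2-Ob, the class II member whose groups did not overlap, are shown from RefSeq (GRCm38.p6), H2-Aa at chr17:34287774-34288073 on the minus strand, H2-Eb1 at chr17:34305617-34305916 on the plus strand and H2-Ob at chr17:34238655-34238954 on the plus strand. Capitals mark CTGATTGG and ATTGG or their reverse complements.
H2-Aa: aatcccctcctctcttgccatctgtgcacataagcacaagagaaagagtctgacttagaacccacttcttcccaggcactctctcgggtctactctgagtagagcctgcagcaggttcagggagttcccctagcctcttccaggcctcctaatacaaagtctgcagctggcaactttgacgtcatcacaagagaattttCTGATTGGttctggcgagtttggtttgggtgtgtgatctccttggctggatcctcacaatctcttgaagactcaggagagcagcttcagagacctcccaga
H2-Eb1: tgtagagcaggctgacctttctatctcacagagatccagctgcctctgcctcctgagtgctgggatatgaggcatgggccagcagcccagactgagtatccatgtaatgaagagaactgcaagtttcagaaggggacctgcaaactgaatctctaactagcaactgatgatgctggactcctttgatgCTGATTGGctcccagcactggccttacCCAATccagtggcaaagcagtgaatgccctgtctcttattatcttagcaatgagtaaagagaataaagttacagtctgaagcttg
H2-Ob: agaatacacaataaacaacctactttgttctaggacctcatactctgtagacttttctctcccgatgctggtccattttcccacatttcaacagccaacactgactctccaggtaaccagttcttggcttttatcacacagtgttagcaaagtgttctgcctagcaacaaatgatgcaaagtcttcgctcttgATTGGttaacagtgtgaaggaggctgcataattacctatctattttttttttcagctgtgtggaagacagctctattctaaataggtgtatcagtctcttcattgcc
The Y box begins 51 bases before the annotated start of H2-Aa and 62 bases before that of H2-Eb1. The window of H2-Ob holds the shorter ATTGG, 57 bases before the start, and no run of CTGATTGG, which says only that these letters are not in that window. H2-Oa holds a Y box 46 bases before its start. H2-DMb1 holds the shorter ATTGG 61 bases before its start and no run of CTGATTGG. Whether these motifs bear on the levels was not tested.

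Cd74 encodes the invariant chain, which fills the class II groove until peptide arrives, and Ciita the master transactivator of class II genes. Cd74 was at 667, 2238 and 1146 RPKM in miR-27 Tg libraries and 473, 592 and 1049.6 RPKM in WT libraries. Ciita was at 6.74, 25.8 and 12.2 RPKM in miR-27 Tg libraries and 4.57, 8.35 and 10.9 RPKM in WT libraries, in the same order of libraries as H2-Aa. Both genes overlapped between the groups and were highest in miR-27 Tg replicate 2. Their log2 fold changes of 0.85 and 0.72 did not pass (adjusted p = 0.482 and 0.600 by limma). Nlrc5, the class I counterpart of Ciita, was 31.8 to 113 times as high as Ciita in miR-27 Tg libraries and 69.8 to 166 times as high in WT libraries, by RPKM.

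The genes of peptide exchange did not all follow the chains. H2-DMa and H2-DMb1 encode the chains of DM, which removes the invariant chain fragment. H2-DMb1 was at 11.5, 46.4 and 21.6 RPKM in miR-27 Tg libraries and 9.13, 11.4 and 17.7 RPKM in WT libraries, and H2-DMb2, a second beta chain gene, was at 11.5, 33.9 and 23.9 RPKM in miR-27 Tg libraries and 13.7, 17.6 and 24.5 RPKM in WT libraries. H2-DMa was at 139, 210.5 and 178 RPKM in miR-27 Tg libraries and 172, 214 and 208 RPKM in WT libraries. All 3 genes overlapped between the groups, with log2 fold changes of 0.84, 0.21 and -0.18, and H2-DMa was the steadiest class II member tested, its highest library 1.54 times its lowest. The ratio of H2-DMa to H2-DMb1, chains of 1 molecule, was 4.53 to 12.1 in miR-27 Tg libraries and 11.7 to 18.9 in WT libraries.

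H2-Oa and H2-Ob encode DO, which restrains DM. H2-Ob, at chr17:34238905-34245908 on the plus strand (mm10), was at 288, 282 and 361 RPKM in miR-27 Tg libraries and 216, 235 and 192 RPKM in WT libraries. The groups did not overlap, and miR-27 Tg replicate 2, the highest library for the class II chains, was the lowest of its group here. The means were 310.5 ± 44.2 RPKM in miR-27 Tg and 214 ± 21.4 RPKM in WT (SD, n = 3 each), and the log2 fold change of 0.53 (SE 0.12, 1.44-fold with an interval of 1.18 to 1.76) did not pass after adjustment over all genes (adjusted p = 0.113 by limma). H2-Oa was at 121, 196 and 179 RPKM in miR-27 Tg libraries and 131, 216 and 168 RPKM in WT libraries, overlapping ranges with a log2 fold change of -0.055 and an interval of -0.57 to 0.46. Of its exonic bases 29.5% overlap BC051537. H2-Eb2 had a log2 fold change of 0.23 and an interval of -0.62 to 1.08.

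Without miR-27 Tg replicate 2, the library with the highest class II chain levels, the median log2 fold change of the 11 class II members was 0.34, in place of 0.72, and that of H2-Aa was 0.47, of H2-Ab1 0.48, of H2-Eb1 0.49, of Cd74 0.39 and of Ciita 0.25. Without miR-27 Tg replicate 1 the class II median was 1.15. With any 1 library left out, 0 members passed the test in either direction.

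Some dendritic cell markers shared the library order of the class II chains, while most B cell and myeloid markers did not. Of 10 dendritic cell markers tested, 5 (Flt3, Clec9a, Siglech, Cd209a and Clec10a) had exactly the order of libraries of H2-Aa, as did 4 of the 11 class II members (H2-Aa itself, H2-Ab1, H2-Eb1 and Ciita). This order was also that of 2 of 14 B cell markers (Spib and Fcrla), 1 of 14 myeloid markers (Mpeg1), 1 of 33 class I members (H2-Q4) and 115 of the 13621 genes tested (0.844%). Siglech, a marker of plasmacytoid dendritic cells, was at 27.4, 330.5 and 153 RPKM in miR-27 Tg libraries and 14.4, 64.4 and 119 RPKM in WT libraries (log2 fold change 1.19, adjusted p = 0.686 by limma). Clec9a, a marker of cross-presenting dendritic cells, was at 3.12, 29.2 and 13.5 RPKM in miR-27 Tg libraries and 1.16, 4.18 and 8.64 RPKM in WT libraries (log2 fold change 1.36, adjusted p = 0.534 by limma). Both were highest in miR-27 Tg replicate 2 and lowest in WT replicate 1, as H2-Aa was. Over the 10 dendritic cell markers tested, 7 were highest in miR-27 Tg replicate 2 and 8 lowest in WT replicate 1. Other dendritic cell markers went differently, chosen here after their values were seen. Zbtb46 was at 1.18, 3.18 and 0.868 RPKM in miR-27 Tg libraries and 2.37, 3.67 and 3.17 RPKM in WT libraries (log2 fold change -0.65, adjusted p = 0.497 by limma), and Snx22 had a log2 fold change of -0.016. Xcr1, under the limit for testing, was at 1.06, 0.196 and 0.914 RPKM in miR-27 Tg libraries and 1.01, 0.914 and 1.19 RPKM in WT libraries, lowest in miR-27 Tg replicate 2. Of the 14 myeloid markers tested, 12 were highest in miR-27 Tg replicate 2 and 11 lowest in WT replicate 2, and of the 14 B cell markers tested 8 were highest in miR-27 Tg replicate 2 and 2 lowest in WT replicate 1.

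The summed level of the 11 dendritic cell markers was 319 to 799 RPKM in miR-27 Tg libraries and 269 to 521 RPKM in WT libraries, much of it from Snx22, at 237 to 336 RPKM over all libraries. Myeloid markers (16) summed to 504 to 1500 RPKM in miR-27 Tg libraries and 321 to 617 RPKM in WT libraries, and B cell markers (15) to 324 to 561 RPKM in miR-27 Tg libraries and 384 to 471 RPKM in WT libraries. In each of these 3 lists the ranges overlapped. Ms4a1, a B cell marker, stood at 2.2 to 10.5 RPKM over all libraries, and Cd14 of the myeloid list was at 0 in miR-27 Tg replicate 1. No dendritic or B cell marker passed the test. Among the 14 myeloid markers tested 1 rose, Itgam, with 16.0, 17.1 and 16.2 RPKM in miR-27 Tg libraries and 4.40, 3.94 and 4.91 RPKM in WT libraries (log2 fold change 1.69, adjusted p = 0.0118 by limma), and 11 were higher at an unadjusted p under 0.05, beside 625 of all 13621 genes tested, the largest log2 fold changes being those of S100a9 (2.69) and S100a8 (2.16). For 6 of the 14 myeloid markers the groups did not overlap, all of them higher in miR-27 Tg libraries. Over all genes tested, the groups did not overlap for 18.5% in either direction and for 6.84% on the higher side. Itgam no longer passed without miR-27 Tg replicate 3 (adjusted p = 0.0703 by limma), WT replicate 1 (0.0535) or WT replicate 3 (0.0530).

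The part of these cell types in the class II values was not tested, and in bulk libraries fewer cells of a type and less RNA per cell cannot be told apart. With the mean log2 level of the B cell, myeloid and dendritic cell markers as a covariate in the limma fit, the class II median was -0.30 and that of class I -0.037, and H2-T24 had a log2 fold change of 0.49 (adjusted p = 0.295 by limma). That level was 3.25, 4.37 and 3.83 in miR-27 Tg replicates 1 to 3 and 3.04, 3.01 and 3.49 in WT replicates 1 to 3, so it moves in part with genotype, and 3 of all 13621 genes passed in that fit.

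**Figure D4:**
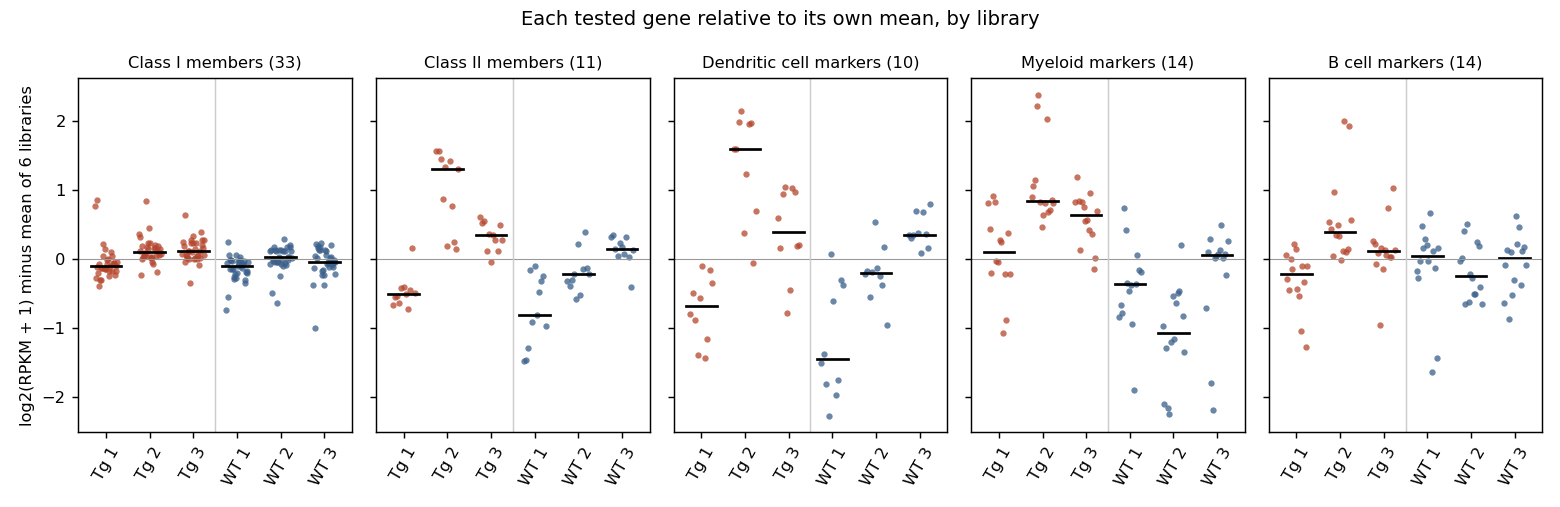
Log2(RPKM + 1) of each tested gene minus its mean over the 6 libraries (vertical axis), by library, for class I members, class II members and 3 lists of cell type markers, with a bar at the median of the list. Most class I members lie near 0, with H2-Bl, H2-Q10 and H2-M2 spread more widely. In miR-27 Tg replicate 2, 8 of 11 class II members and 7 of 10 dendritic cell markers are at their highest, and in WT replicate 1, 6 and 8 are at their lowest.

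Other cell types were followed by 2 further lists. Among 7 CD8 T and NK cell markers tested, Nkg7 fell, with 48.2, 59.0 and 51.8 RPKM in miR-27 Tg libraries and 103, 114 and 90.4 RPKM in WT libraries (log2 fold change -0.93, adjusted p = 0.0257 by limma), and Klrb1c had -1.05 (adjusted p = 0.140 by limma). Nkg7 passed without miR-27 Tg replicate 2 (adjusted p = 0.0477 by limma) but not without any other single library (0.0613 to 0.107). Of the 7 markers, 4 had a log2 fold change above 0 and 3 below, with a median of 0.32. The groups did not overlap for 3, Nkg7 and Klrb1c lower and Cd8b1 higher, beside 18.5% of all genes tested. Cd8b1, chosen after its values were seen, had a log2 fold change of 0.72 (adjusted p = 0.258 by limma). Of 8 T cell and Treg cell markers 0 passed, the largest log2 fold changes being -0.56 for Ctla4 (adjusted p = 0.0868 by limma) and -0.51 for Ikzf2 (adjusted p = 0.290 by limma).

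Of 13 transcription factors known to act on MHC promoters, whose median log2 fold change was 0.084, 1 rose, Stat2, a component of the interferon-activated complex ISGF3. Stat2 was at 296, 353 and 311 RPKM in miR-27 Tg libraries and 191, 202 and 206 RPKM in WT libraries, without overlap (log2 fold change 0.68, adjusted p = 0.0258 by limma). With any 1 library left out (adjusted p = 0.0566 to 0.101 by limma), or with no intensity trend (0.0520), it no longer passed. Irf9, of the same complex, had a log2 fold change of 0.23 (adjusted p = 0.340 by limma). For 4 of the 13 (30.8%) the groups did not overlap, all on the higher side, where 6.84% of all genes tested fell. They are Stat2, Irf9, Irf1 (log2 fold change 0.19, adjusted p = 0.460 by limma) and the NF-Y subunit gene Nfyc (0.22, adjusted p = 0.414 by limma). Rfx5, which binds the X box of both MHC classes, had -0.061 (adjusted p = 0.929 by limma). Irf8, which B cells and dendritic cells also express, was at 81.1, 381 and 189 RPKM in miR-27 Tg libraries and 83.8, 117 and 178 RPKM in WT libraries (log2 fold change 0.58, adjusted p = 0.717 by limma), highest in miR-27 Tg replicate 2. Irf1, Irf9, Nfyc and Rfx5 were chosen after their values were seen.

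Among 11 other genes of the class II pathway (endosomal proteases and ubiquitin ligases among them) 0 passed and 0 reached an unadjusted p under 0.05, with a median log2 fold change of 0.092. The largest log2 fold changes were those of the cathepsin gene Ctsh, 1.18 (adjusted p = 0.590 by limma), and of March1, which encodes a ligase that removes class II from the surface, 0.76 (adjusted p = 0.514 by limma). Ctsh, March1 and Ctsl had the library order of H2-Aa. H2-Ke6, the member of neither class, had a log2 fold change of -0.043 with an interval of -0.31 to 0.22, and 99.9% of its exonic bases overlap Gm20427.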

How the data were processed

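The authors deposited 1 table of RPKM values for all 6 libraries. Per the file headers, HOMER counted exonic reads of RefSeq transcripts (mm10, either strand) and scaled each library to 10000000 reads. Per the submitters' processing notes the tools were STAR 2.2.0c and HOMER, and the builds mm10 and GRCm38. The handling of multi-mapping reads was not stated there. In every library 100% of the low values came out as whole reads to within 0.1, which gave the depths and the read numbers quoted. RPKM values are not counts, so no count model was used.

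Per symbol the transcript with the highest mean RPKM was kept (34711 transcripts, 24453 symbols), and the 13621 symbols with a mean of at least 1 RPKM were tested with limma 3.58.1 in R 4.3.3, two-sided, with a pseudocount of 1 and no covariate. The script was tested on simulated data. Levels are mean ± SD, and intervals are 95% intervals of limma. Members and gene lists were chosen with earlier results of these data known. Members were named if they belonged to a fixed list of 27 genes, passed the threshold, had an absolute log2 fold change of at least 0.58 or had groups without overlap, and genes of other lists if they passed or had one of the 2 largest changes of their list. Settings tried were other pseudocounts (0.1 and 5), filters (none, and 5 RPKM), no trend, array weights, median-ratio scaling, quantile normalization, the longest transcript per symbol, a replicate block, leaving out each library and a covariate of cell type markers. Seed matches were searched in GENCODE M21 (GRCm38) and promoter motifs in RefSeq windows (GRCm38.p6), where H2-K1 had 2 windows and the one at the annotated start of the table is shown. Shares of exonic bases are those of GENCODE M21 transcripts or genes, which need not match the counted transcripts. Intervals from reads cover counting error only.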

Additional observations from a re-analysis of the deposited data

How the results depend on the processing

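Of 526 values of single named genes under other settings 482 kept their direction and their side of the threshold, 35 reversed (17 genes) and 9 (all of H2-T24) lost the threshold. Over all genes tested, 51 were higher and 89 lower, against 15 and 32 with no filter, 81 and 144 with array weights, 91 and 185 with the replicate block, 2 and 1 with the marker covariate, and 3 to 14 and 1 to 44 with 1 library left out. Members higher numbered 1, but 0 with no filter, with no trend, with the marker covariate and with 1 library left out, where 0 were lower too. Of the other antigen processing genes 1 was higher, but 0 with no trend, with the covariate and with 1 library left out. Of markers of other cell types 1 was higher and 1 lower, against 2 lower with quantile normalization, 2 higher with the replicate block, 0 and 0 with the covariate, and 0 to 1 in each direction with 1 library left out. The class I median log2 fold change was 0.0155 to 0.12 and the class II median 0.34 to 1.15 with 1 library left out, and -0.037 and -0.30 with the covariate.

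Values that reversed were small in the fit without a covariate or belonged to class II genes. H2-Oa was 0.082 with array weights and H2-D1 0.031 with median-ratio scaling. With the covariate H2-K1 was -0.024, Ciita -0.29, Cd74 -0.22, Tap1 -0.078, Psmb9 -0.10, Psme1 -0.076, H2-Aa -0.34, H2-Ab1 -0.30, H2-Eb1 -0.19, H2-DMb1 -0.24, H2-DMb2 -0.65, H2-T23 -0.029, H2-M3 -0.092 and H2-Q7 -0.11. With 1 library left out the log2 fold change was -0.0061 to 0.105 for H2-K1, -0.0445 to 0.0618 for H2-D1, -0.17 to 0.0645 for B2m, -0.041 to 0.093 for Tap1, -0.054 to 0.17 for Psmb9, -0.058 to 0.12 for Psme1, -0.12 to 0.62 for H2-DMb2, -0.23 to 0.15 for H2-Oa, -0.0155 to 0.14 for H2-T23, -0.054 to 0.21 for H2-M3 and -0.020 to 0.12 for H2-Q7. The cause was not tested. Libraries with the same replicate number had correlations of their deviations of 0.368, 0.097 and 0.037, beside -0.222 to 0.154 for libraries of unlike number. These values do not settle whether the numbers mark pairs. The main fit did not take them as pairs, and the replicate block is given here as counts. H2-M2 rests on 17 to 34 reads per miR-27 Tg library and 9 to 17 per WT library.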
